A study of Mus musculus with 27 samples.

Results

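Interferon-stimulated genes are the antiviral genes that cells switch on after interferon binds its receptor. The 50 described here are a list of classical members, chosen with earlier results of these data known. Nucleic acid sensors, interferon-inducible GTPases and MHC class I genes were left out. Each symbol was matched to its identifier among the 48440 genes of the count table. Of the 50, 49 passed the filter on low counts and were tested among 18684 genes. The exception was Epsti1, with 35 reads over all libraries.

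RNA was sequenced from wild-type C57BL/6 lung fibroblasts in primary culture, kept in 15% serum and 3% oxygen, in 27 libraries that form 9 groups of 3. KU60019, a kinase inhibitor of ATM, the sensor of DNA double-strand breaks, was given at 3 uM for 15 d (KU60019 15 d) or 35 d (KU60019 35 d), and in 2 further groups it was taken away after 15 d or 35 d and the cells were kept for another 20 d (KU60019 15 d then 20 d off, KU60019 35 d then 20 d off). Cells given 10 Gy of X-rays and harvested 10 d later (IR 10 d) are the design's positive control of senescence. The vehicle DMSO was given and removed at the same times in 4 groups (DMSO 15 d, DMSO 35 d, DMSO 15 d then 20 d off, DMSO 35 d then 20 d off), and the labels name no mock-irradiated group. The 3 libraries of a group carry the same 3 numbers in every group (as in S1_705, S2_715 and S3_716 for DMSO 15 d). The labels do not explain these numbers, so p-values measure the spread between these libraries, which may be technical.

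Type I interferons bind the receptor pair IFNAR1 and IFNAR2, whose kinases JAK1 and TYK2 switch on transcription factors in the cytoplasm. STAT2 and IRF9 are subunits of the complex ISGF3, which binds the interferon-stimulated response element in the promoters of interferon-stimulated genes, and a second sequence of the interferon pathways is the gamma-activated sequence. The products block viruses at several steps: OAS proteins activate the RNA-degrading enzyme RNase L, IFIT proteins bind viral RNA, MX proteins trap viral capsids, ISG15 is attached to other proteins, and BST2 tethers budding virions to the cell. Mx2 and Oas1b are annotated in GENCODE M21 as polymorphic pseudogenes, so their RNA need not give a working protein in these cells. Fibroblasts both make interferon beta after sensing foreign or misplaced nucleic acid and respond to it, and the same genes are known to rise in senescent fibroblasts.

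The binding sequences that define the class can be read in the members' promoters. In RefSeq windows of 250 bases before to 50 bases after the start of a gene (GRCm38.p6), the core of the interferon-stimulated response element, GAAANNGAAA on either strand, was present in 19 of the 40 members that have a window (47.5%), against 3.99% of 27025 genes with a window. The core of the gamma-activated sequence, TTCNNNGAA on either strand, was in 9 of the 40 (22.5%), against 9.55% of all genes. Of the 32 response element matches in members, 24 lay before the start, and 2 gamma-activated sequence matches overlapped one. Stretches of 40 bases are shown for genes with large rises under KU60019, for 2 pairs of close paralogs (Oas1a and Oas1g, Ifit3 and Ifit3b), for the ISGF3 subunit gene Stat2, for Slfn5, which carries the element but was called higher in no comparison of KU60019 with DMSO, and for Irf1, which has the gamma-activated core instead. Capitals mark the response element, and in Irf1 the gamma-activated core, on the strand of the gene. Capitals that begin with TTTC mark the element on the other strand. The last capitals of Ifit1 are only the first part of its second match, which runs past the end of the stretch. In Bst2 a gamma-activated match overlaps the first capitals, and its other bases are left in lower case.
Isg15: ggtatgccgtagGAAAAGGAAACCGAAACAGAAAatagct
Ifit1: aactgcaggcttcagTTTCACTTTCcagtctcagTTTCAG
Ifit3: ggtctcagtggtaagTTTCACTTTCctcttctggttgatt
Ifit3b: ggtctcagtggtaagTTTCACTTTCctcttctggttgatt
Oas1a: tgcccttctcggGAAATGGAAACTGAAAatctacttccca
Oas1g: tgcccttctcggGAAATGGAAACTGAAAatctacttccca
Bst2: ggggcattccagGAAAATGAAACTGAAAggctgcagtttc
Rsad2: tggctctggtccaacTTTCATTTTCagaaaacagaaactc
Stat2: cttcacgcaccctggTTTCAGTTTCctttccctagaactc
Slfn5: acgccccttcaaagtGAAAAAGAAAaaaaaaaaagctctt
Irf1: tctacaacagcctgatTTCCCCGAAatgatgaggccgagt
These lie at chr4:156200869-156200908 (minus strand), chr19:34640770-34640809 (plus), chr19:34583358-34583397 (plus), chr19:34607754-34607793 (plus), chr5:120907518-120907557 (minus), chr5:120887604-120887643 (minus), chr8:71537575-71537614 (minus), chr12:26456548-26456587 (minus), chr10:128270261-128270300 (plus), chr11:82951932-82951971 (plus) and chr11:53769908-53769947 (plus), in the order given. The Isg15, Oas1a, Oas1g and Bst2 stretches each hold overlapping matches in tandem. Both paralog pairs are identical over the 40 bases shown. A match describes the letters in the window and not a bound site.

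Near-identical copies limit some values. Of all 50-base stretches in the annotated transcripts of Oas1a, 57.6% also occur in those of another gene, the partner being Oas1g, and the share is 51.2% for Ifit3 with Ifit3b. It is 20.0% for Ifi204 and 18.6% for Ifi205, mostly with the gene Ifi211. No source used here says how shared reads were counted, so levels of these genes are uncertain. Levels per length ranked Ifitm3 first, with a mean of 1253 deposited TPM, a unit scaled for gene length and depth, over all libraries, before Bst2 (764 TPM), Ifi27 (446 TPM), Isg15 (214 TPM) and Lgals9 (178 TPM). Below, single levels are CPM, reads scaled to library size with edgeR's TMM factors, given in the order of the libraries' numbers (S1_705, S2_715, S3_716), and changes are log2 fold changes ± SE from edgeR with a threshold of 0.05 on the Benjamini-Hochberg adjusted p over all 18684 genes.

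Total counts ran from 20659745 to 50859493 per library (median 31265114). rRNA genes took over 0.4% of counts in 4 libraries, namely DMSO 15 d then 20 d off S7_705 (0.844%), DMSO 35 d then 20 d off S19_705 (2.91%) and S20_715 (0.431%), and IR 10 d S27_716 (1.60%). Levels followed gene length differently in DMSO 15 d S2_715 (Spearman rho over genes -0.11) than in the other two libraries of its group (0.33 and 0.30), and lay between -0.13 and -0.02 in KU60019 15 d libraries. With each library's length trend removed, the main count given below for KU60019 15 d was 40. Fibroblast markers were detected in every group, all 9 of them, at sums that differed between groups as given beside the results, and lymphocyte markers to at most 2.06 CPM.

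Averaged over the 49 genes, expression was highest after 15 d of KU60019 and lowest after 35 d of DMSO and 20 d without it. The mean of log2 CPM over the genes, each centred on its mean over all libraries, was 1.46 ± 0.28 in KU60019 15 d (SD, n = 3 in every group), 0.84 ± 0.14 in KU60019 15 d then 20 d off, 0.43 ± 0.19 in KU60019 35 d, -0.04 ± 0.53 in IR 10 d and -0.34 ± 0.22 in KU60019 35 d then 20 d off. In DMSO it was -0.28 ± 0.41 at 15 d, -0.48 ± 0.38 at 35 d, -0.44 ± 0.48 after 15 d and removal, and -1.13 ± 0.04 after 35 d and removal. Libraries of KU60019 15 d stood between 1.29 and 1.78, above all 24 others, whereas the ranges of IR 10 d, DMSO 15 d, DMSO 35 d and DMSO 15 d then 20 d off overlapped one another. The lowest-numbered library was the highest in 6 of the 9 groups. Between libraries of the same number, in number order, KU60019 15 d exceeded DMSO 15 d by 1.59, 1.80 and 1.82, KU60019 35 d exceeded DMSO 35 d by 0.46, 1.36 and 0.92, and IR 10 d exceeded DMSO 15 d by 0.36, 0.28 and 0.06.

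**Figure D1:**
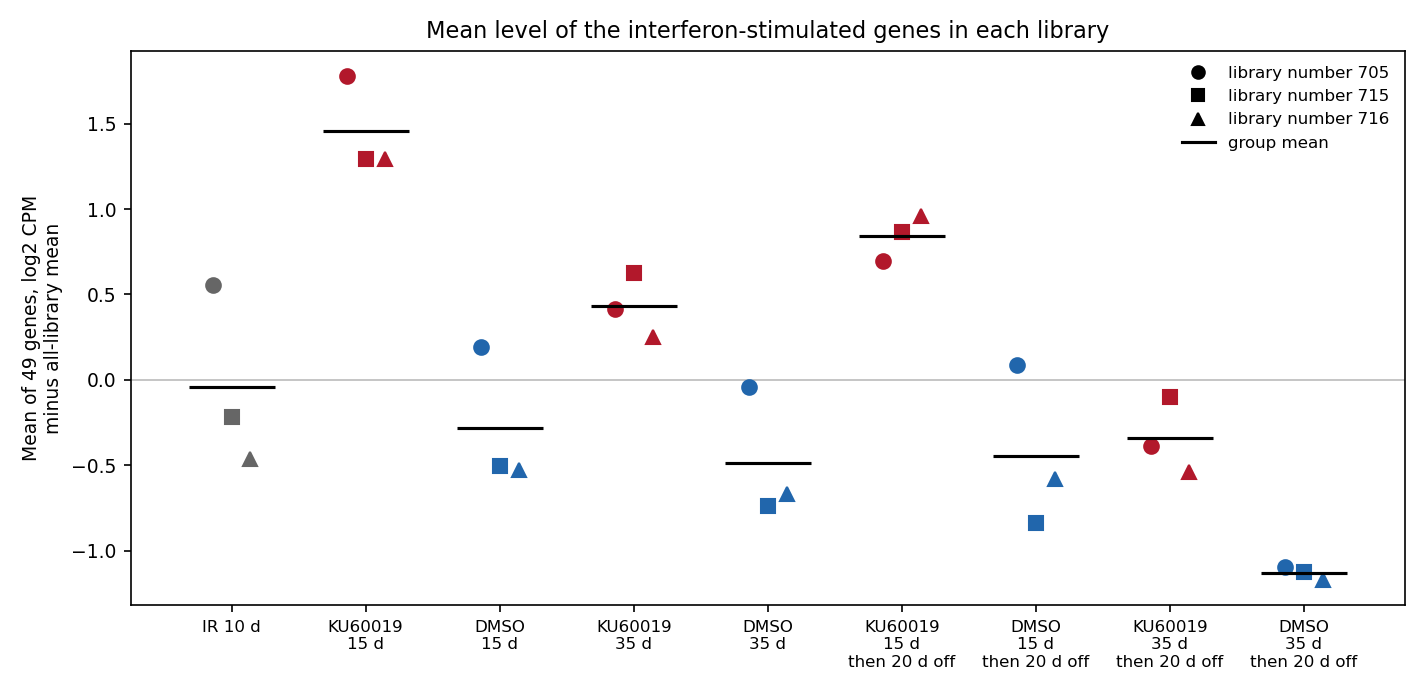
Mean over the 49 tested genes of log2 CPM minus each gene's all-library mean (vertical axis), for the 3 libraries of each group (points, shaped by library number) with the group mean (line). The KU60019 15 d libraries sit between 1.29 and 1.78, above every other library, and the DMSO 35 d then 20 d off libraries sit lowest, near -1.13.

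Most of the genes moved together. The Pearson correlation of a gene's log2 CPM with the mean of the other members over the 27 libraries had a median of 0.82, and was 0.9 or more for 14 genes, led by Ifit3 (0.98), Rtp4 (0.97) and Trim30a (0.97). It was under 0.2 for 4 genes: Slfn5 (0.18), Irf1 (0.04), Isg20 (-0.05) and Ifi27 (-0.08). The libraries share their groups and depth, so these values describe the pattern and carry no test.

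**Figure D2:**
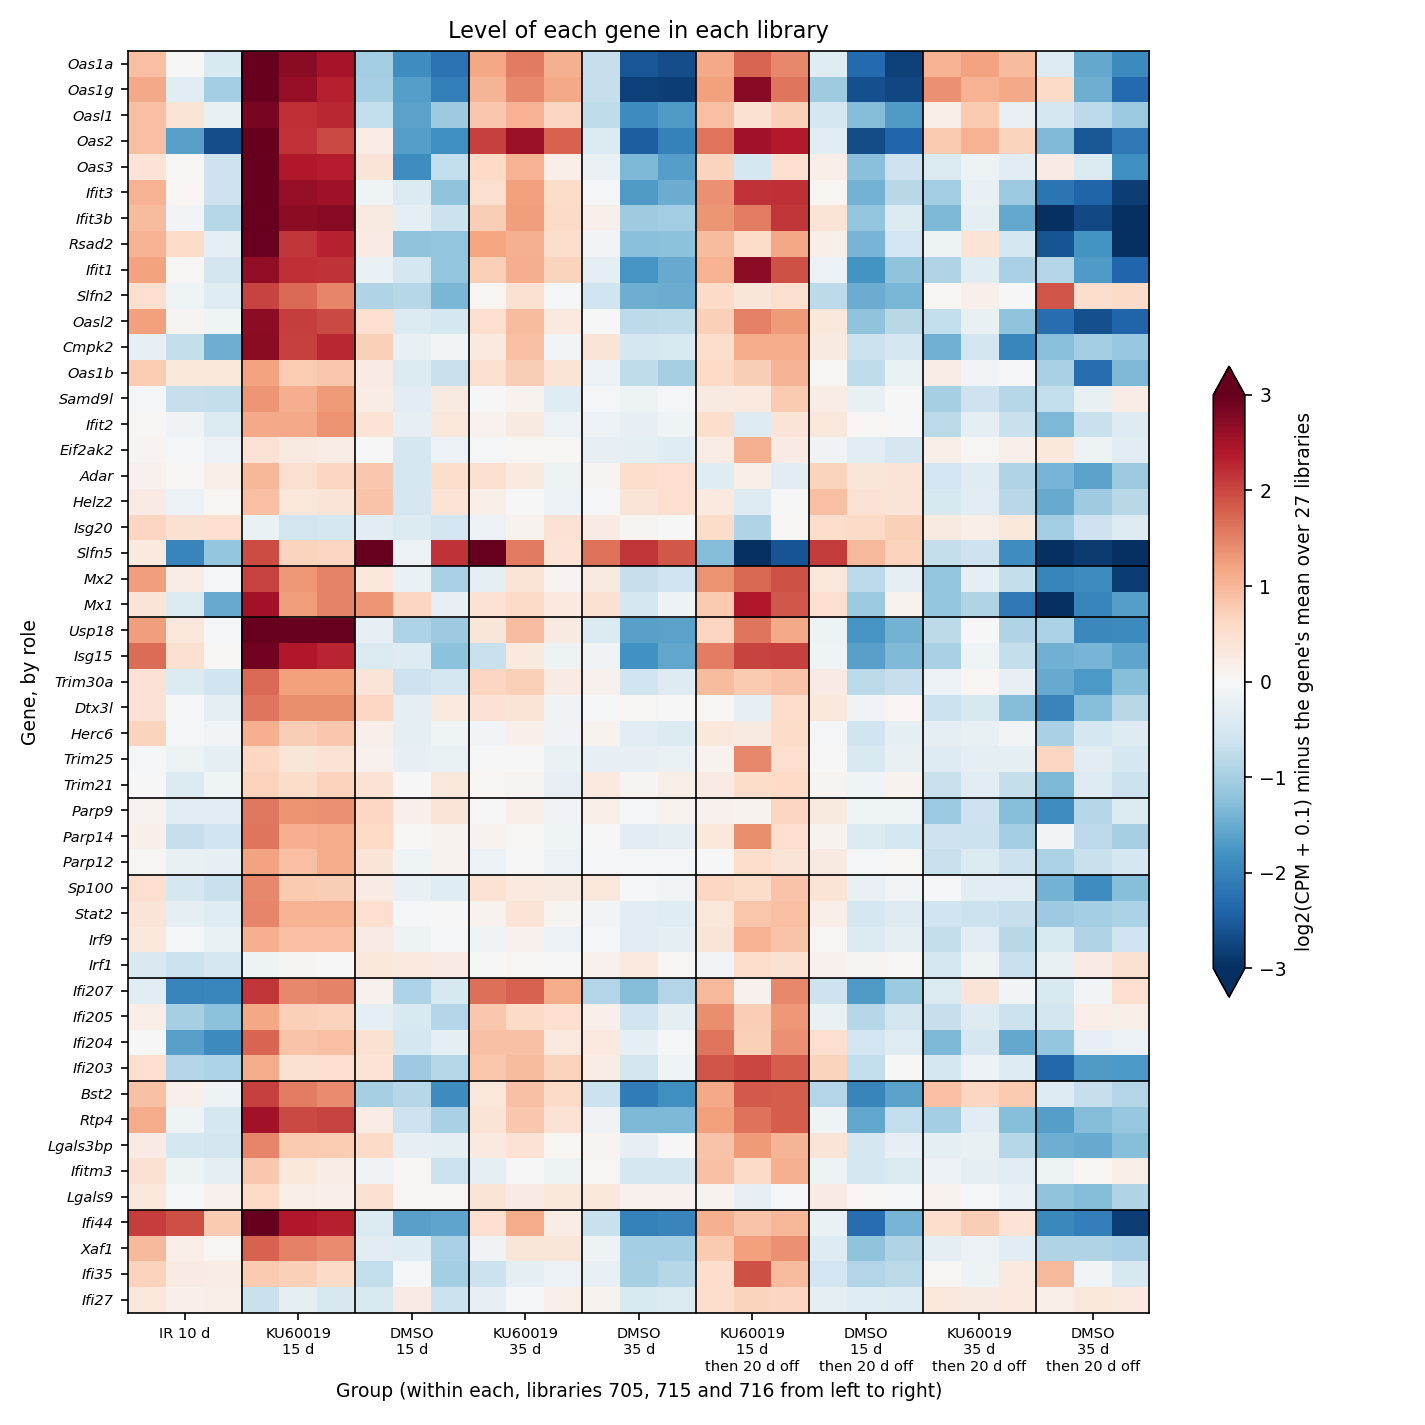
Level of the 49 tested genes (rows, grouped by role: RNA and nucleotide effectors, MX proteins, the ISG15 and ubiquitin system, PARPs, transcription and nuclear bodies, HIN200 proteins, membrane and secreted proteins, others) in the 27 libraries (columns, by group), as log2(CPM + 0.1) minus the gene's mean. The KU60019 15 d columns are above the mean for nearly all rows, while Slfn5, Irf1, Isg20 and Ifi27 do not follow the other rows.

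After 15 d of the inhibitor, 39 of the 49 genes rose and 0 fell against DMSO 15 d, where 13.2% of all genes tested rose and 17.1% fell. The median log2 fold change was 1.22, against -0.02 over all genes. As the list was chosen with earlier results of these data known, its shares beside those of all genes are a description, here and below. In bulk RNA, a change in the number of cells of one kind and a change in RNA per cell cannot be told apart. Without any one of the 6 libraries between 33 and 38 genes rose, and 29 of the 39 were called under every alternative tried.

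Of the RNA and nucleotide effectors 16 of 20 rose (median 2.57). Oas1a (chromosome 5, 120896256 to 120907521, minus strand, GRCm38), an oligoadenylate synthetase, had 42.6, 26.9 and 22.9 CPM in KU60019 15 d libraries, against 1.92, 1.04 and 0.784 CPM in DMSO 15 d libraries. Its log2 fold change was 4.63 ± 0.62 (SE, adjusted p = 1.01e-05), the largest of the list. All KU60019 libraries were far above all DMSO libraries, and the neighbouring Oas1g, Oas2 and Oas3 rose by 4.48 ± 0.75, 3.52 ± 0.79 and 3.46 ± 0.65. Oas2 had 40.3, 16.8 and 14.7 CPM, against 4.27, 1.08 and 0.937 CPM. The lowest-numbered library was the highest in both groups. Oas3 stayed low at 3.85, 2.52 and 2.43 CPM, against 0.549, 0.0358 and 0.196 CPM. Oasl1, which binds viral RNA but lacks synthetase activity, had 20.2, 12.7 and 13.3 CPM in KU60019 15 d and 1.59, 0.824 and 1.22 CPM in DMSO 15 d libraries, a log2 fold change of 3.66 ± 0.38 (SE, adjusted p = 5.21e-07). The groups lay well apart.

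The IFIT genes, whose products bind viral RNA ends, rose together. Ifit3 had 699, 418 and 400.2 CPM under KU60019, against 62.7, 51.96 and 29.7 CPM in DMSO (3.39 ± 0.50, adjusted p = 3.05e-05). Ifit1 had 296, 213 and 212 CPM, against 40.7, 32.5 and 20.5 CPM (2.94 ± 0.52, adjusted p = 0.000205). Ifit2 rose less, with 29.3, 29.3 and 33.9 CPM, against 17.7, 11.2 and 16.8 CPM (1.01 ± 0.23, adjusted p = 0.00211), and its rise was not called with limma on TPM values. Rsad2, which makes a chain-terminating nucleotide, rose by 3.12 ± 0.48 and its genomic neighbour Cmpk2, a mitochondrial nucleotide kinase, by 2.22 ± 0.39. Eif2ak2, the kinase PKR that halts translation on double-stranded RNA, rose by only 0.53 ± 0.19. Adar, which edits double-stranded RNA, Helz2, Isg20 and Slfn5 were not called, with log2 fold changes of 0.35 ± 0.25, 0.21 ± 0.26, 0.01 ± 0.23 and -1.56 ± 0.76.

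In the ISG15 system 5 of 7 genes rose. Isg15 itself (chromosome 4, 156199424 to 156200818, minus strand) had 444, 319 and 292 CPM in KU60019 15 d and 43.9, 45.8 and 25.4 CPM in DMSO 15 d libraries, a log2 fold change of 3.20 ± 0.48 (SE, adjusted p = 3.65e-05). Usp18, which strips ISG15 from proteins and damps the receptor, had 98.995, 88.8 and 89.6 CPM, against 9.16, 5.66 and 5.05 CPM (3.80 ± 0.46, adjusted p = 3.04e-06). For both genes the lowest inhibited library was more than any DMSO library. Herc6, the mouse ligase for ISG15, rose by 0.96 ± 0.20, Trim30a by 1.60 ± 0.30 and the ubiquitin ligase gene Dtx3l by 1.21 ± 0.27. Trim25 and Trim21, ligases of the antiviral response, were not called at 0.57 ± 0.26 and 0.37 ± 0.18.

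All 3 PARP genes rose by similar amounts: Parp9, the partner of DTX3L, by 1.04 ± 0.25, Parp12 by 0.94 ± 0.15 and Parp14 by 1.02 ± 0.28. Of the transcription factors, Stat2 rose by 1.02 ± 0.21 and Irf9 by 0.94 ± 0.18, both subunits of ISGF3, and Sp100, a component of nuclear bodies, by 1.10 ± 0.26. Irf1, itself an interferon-induced transcription factor, had 22.1, 25.7 and 24.5 CPM in KU60019 15 d and 31.1, 30.1 and 28.9 CPM in DMSO 15 d libraries (-0.32 ± 0.16, adjusted p = 0.136). Its inhibited libraries all lay below the DMSO libraries, but the difference was not called. All 4 HIN200 genes, whose products include DNA-binding proteins, rose, from 1.08 ± 0.39 for Ifi203 to 2.12 ± 0.43 for Ifi207. The call of Ifi203 was kept in 7 of 17 alternatives and that of Ifi204 in 10, while Ifi205 and Ifi207 kept theirs in all 17. Mx2 rose by 1.86 ± 0.39, whereas Mx1 was not called (1.22 ± 0.55, adjusted p = 0.0974) at levels of 5.17, 2.10 and 2.48 CPM, against 2.20, 1.33 and 0.675 CPM.

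Membrane and secreted products followed, with 4 of 5 higher. Bst2 (chromosome 8, 71534255 to 71537456, minus strand), the virion tether, had 1140.0, 793 and 729 CPM in KU60019 15 d and 136, 152 and 73.7 CPM in DMSO 15 d libraries, a log2 fold change of 2.88 ± 0.38 (SE, adjusted p = 8.67e-06). Ifitm3, which blocks viral fusion, had 873, 617 and 584 CPM, against 465, 522 and 319.5 CPM (0.67 ± 0.22, adjusted p = 0.0233). The most abundant member by TPM thus changed far less than Bst2. Lgals9, a secreted lectin, had 239, 181 and 177 CPM, against 219.8, 165 and 161 CPM, and Ifi27, a mitochondrial protein, 164, 217 and 188 CPM, against 189, 311 and 167 CPM. Both overlapped between groups and were not called (0.13 ± 0.15 and -0.23 ± 0.18). Ifi44, of unsettled function, had 102, 65.2 and 62.7 CPM, against 9.25, 3.91 and 4.03 CPM (3.74 ± 0.49, adjusted p = 8.16e-06).

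**Figure D3:**
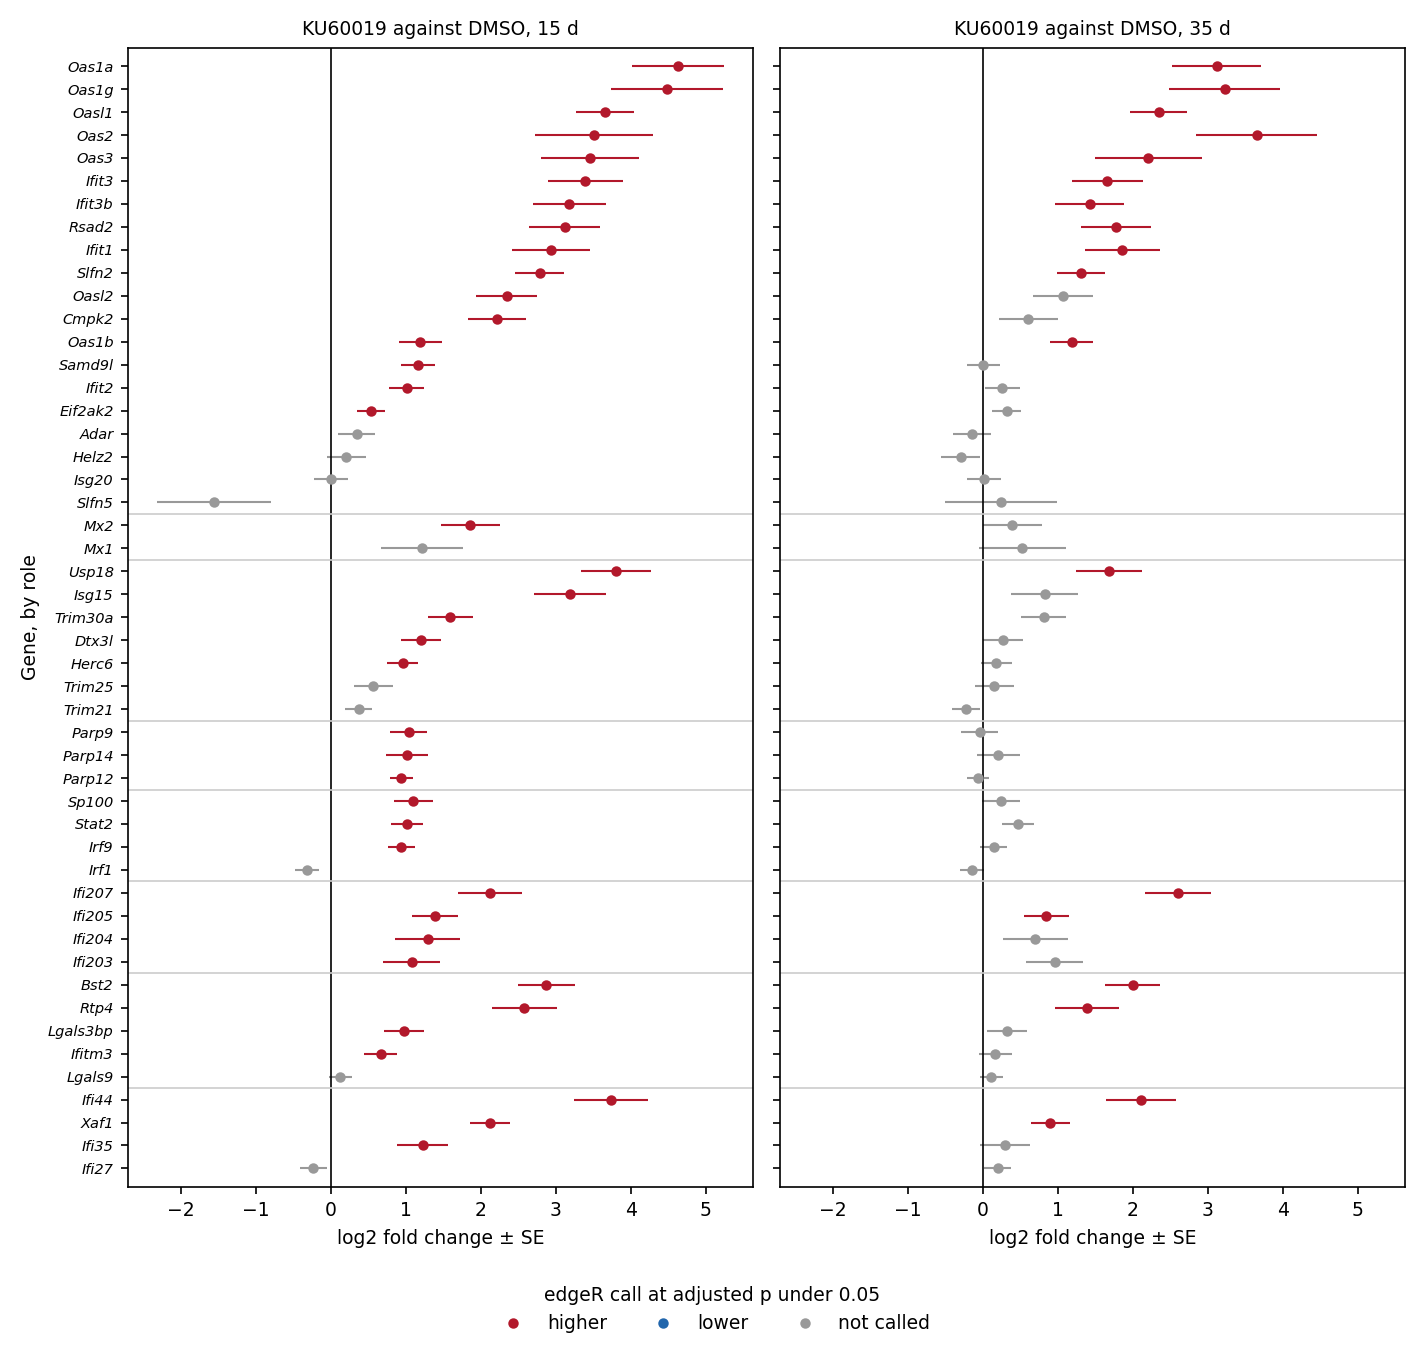
Log2 fold change ± SE of each gene (rows, by role) for KU60019 15 d against DMSO 15 d (left) and KU60019 35 d against DMSO 35 d (right), from edgeR. At 15 d 39 of 49 genes were called higher (red) and at 35 d 18, with 0 called lower in either.

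The interferon genes themselves were close to undetected. Of 21 interferon genes, 6 had no read in any library and 18 had fewer than 10 in all, and their summed level stayed between 0.355 and 0.658 CPM in KU60019 15 d and between 0.0916 and 0.327 CPM in DMSO 15 d libraries. The only one tested, Ifnz, held 247 of the 327 reads and was not called (0.90 ± 0.44, adjusted p = 0.129). Ifnb1 had 21 reads over all libraries. Ifnb1, Ifna7 and Ifnab had reads in KU60019 15 d and none in DMSO 15 d libraries, and the reverse held for Ifna2 and Ifna16. At this depth, changes in interferon genes other than Ifnz were not detectable. Of 6 receptor genes, 0 rose and Ifnar2 fell (-0.95 ± 0.29, adjusted p = 0.015), with 68.9 ± 20.8 CPM in KU60019 15 d and 133 ± 21.5 CPM in DMSO 15 d libraries (mean ± SD, n = 3 each). Ifnar1 was not called (-0.54 ± 0.21, adjusted p = 0.0582).

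Downstream of the receptor, Jak2 fell by 0.42 ± 0.16 and Stat3 fell by 0.64 ± 0.16, and Jak1 and Tyk2 were not called. Irf7, which amplifies interferon production, had 189.6 ± 95.4 CPM in KU60019 15 d and 23.6 ± 9.04 CPM in DMSO 15 d libraries. Its log2 fold change was 3.005 ± 0.45 (SE, adjusted p = 3.92e-05). It was the only 1 of the 5 listed IRF genes outside the members to rise. Of the others 2 fell and 2 were not called, and the lowest log2 fold change was -1.23. Of the 6 negative regulators tested, Socs1 fell by 0.96 ± 0.25 and Socs3 fell by 1.45 ± 0.24. Usp18, also a member, rose by 3.80, and 3 were not called. The sensor genes Ddx58 and Ifih1, which detect viral RNA, rose by 0.99 ± 0.19 and 1.16 ± 0.23, and 5 of the 9 sensors and adaptors tested rose in all. Cgas and Tmem173, the DNA-sensing pair that encodes cGAS and STING, were not called (-0.19 ± 0.28 and -0.30 ± 0.15). Of the inducible GTPases 9 of 14 rose, with Irgm1 at 2.73 ± 0.31, and of MHC class I genes 7 of 12, with B2m at 1.46 ± 0.20. These lists are read against the same 13.2% and 17.1% of all genes.

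Cell markers gave the following values beside these rises. Fibroblast markers summed to between 9343 and 11377 CPM in KU60019 15 d and between 28666 and 41553 CPM in DMSO 15 d libraries, and of the 9 tested 4 fell and 1 rose. Macrophage markers summed to between 13.2 and 16.4 CPM in KU60019 15 d and between 9.89 and 19.05 CPM in DMSO 15 d libraries, and of the 8 tested 6 fell and 1, Cd68, rose. Endothelial markers summed to between 21.2 and 26.3 CPM, against 54.6 to 146 CPM, and 9 of 11 fell. Epithelial markers summed to between 13.5 and 17.7 CPM, against 2.11 to 4.91 CPM. Of the 3 tested only Krt19 rose, by 3.09 ± 0.41. The other 2 were not called, at -0.44 and -1.19, and Epcam had no read in KU60019 15 d libraries. Of the markers of plasmacytoid dendritic cells, a strong source of interferon, only Bst2 rose, and the defining marker Siglech had 0 reads in both groups. Their part in the result was not tested.

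After 35 d of the inhibitor the same direction was seen in fewer genes. Against DMSO 35 d, 18 of 49 rose and 0 fell, where 9.7% of all genes rose and 8.4% fell, and the median log2 fold change was 0.53, against -0.01 over all genes. All 18 were also among the 39 at 15 d, which are 79.6% of the tested members. The count was 9 without DMSO 35 d S14_715, 8 without DMSO 35 d S15_716 and up to 21 without another library, and 8 genes were called without each library in turn.

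RNA and nucleotide effectors again made up most of the calls, 11 of 20. Oas2 had 15.4, 21.9 and 12.5 CPM in KU60019 35 d and 2.72, 0.566 and 0.820 CPM in DMSO 35 d libraries (3.65 ± 0.81, adjusted p = 0.0029). Oas1a had 9.12, 12.2 and 8.61 CPM, against 2.46, 0.597 and 0.553 CPM (3.12 ± 0.60, adjusted p = 0.000842), and Oas1g had 4.89, 6.58 and 5.29 CPM, against 1.42, 0.251 and 0.248 CPM (3.23 ± 0.74, adjusted p = 0.00384). No DMSO library reached the inhibited libraries for these synthetase genes. Bst2 had 344, 502 and 409 CPM, against 174, 63.7 and 76.3 CPM (2.0 ± 0.37, adjusted p = 0.000577), and Ifi44 had 17.6, 26.6 and 14.3 CPM, against 7.75, 2.95 and 3.03 CPM (2.11 ± 0.47, adjusted p = 0.00295). Ifi207, a HIN200 gene, had 11.9, 12.9 and 8.14 CPM, against 1.98, 1.45 and 1.96 CPM (2.61 ± 0.44, adjusted p = 0.000245). In each case DMSO 35 d S13_705 was the highest DMSO library.

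Isg15, which had risen strongly at 15 d, had 37.3, 73.5 and 53.6 CPM in KU60019 35 d and 55.8, 16.8 and 20.2 CPM in DMSO 35 d libraries and was not called (0.83 ± 0.45, adjusted p = 0.21). The groups overlapped through the libraries numbered as S1_705, where the level was lower with the inhibitor than with DMSO. Of the ISG15 system only Usp18 was called (1.68 ± 0.44, adjusted p = 0.00917). None of the 3 PARP genes and none of the 4 transcription factor and nuclear body genes was called, and Stat2 stood at 0.47 ± 0.21 and Irf9 at 0.15 ± 0.18. Irf7 was higher at 2.07 ± 0.44 (SE, adjusted p = 0.00202), and MHC class I genes rose in 7 of 12 cases and inducible GTPases in 7 of 14. Schwann cell markers were higher in 4 of the 5 tested here, with sums of 11.4 to 104 CPM in KU60019 35 d and 3.35 to 5.32 CPM in DMSO 35 d libraries. Macrophage markers summed to between 16.4 and 19.2 CPM, against 5.89 to 8.16 CPM, with 1 of 8 (Cd68) higher. Fibroblast markers summed to between 15316 and 16022 CPM, against 35309.9 to 41765 CPM, with 5 of 9 lower and 2 higher. The counts by role and by list are read against 9.7% of all genes higher and 8.4% lower, and 0 calls in a few genes is near those shares. The part of these markers in the result was not tested.

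The inhibitor's effect itself was smaller at 35 d than at 15 d for part of the list. The test of the difference called 8 of 49 genes lower and 0 higher, where 4.58% of all genes were lower and 7.11% higher, and the median difference was -0.81, against 0.03 over all genes. They were Parp12 (-1.004 ± 0.21, adjusted p = 0.0033), Isg15 (-2.37 ± 0.63, adjusted p = 0.0165), Samd9l (-1.16 ± 0.32, adjusted p = 0.0187), Usp18 (-2.12 ± 0.60, adjusted p = 0.0241), Xaf1, Slfn2, Parp9 and Irf9. Without single libraries this count lay between 2 and 8, the lowest without DMSO 35 d S13_705 or KU60019 35 d S16_705, and 3 without DMSO 15 d S3_716 or KU60019 35 d S18_716, 4 without KU60019 15 d S4_705 or S5_715. Parp12, an antiviral mono-ADP-ribosyltransferase, was the only one called in every alternative, with 16.6, 18.8 and 16.7 CPM in KU60019 35 d, 17.96, 17.9 and 18.4 CPM in DMSO 35 d, 43.7, 35.4 and 40.8 CPM in KU60019 15 d and 24.8, 17.2 and 20.4 CPM in DMSO 15 d libraries. The 3 KU60019 15 d values stood apart from the other 9.

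Direct comparison of the inhibited groups, which also differ in culture time, called 31 of 49 genes lower and 0 higher in KU60019 35 d than in KU60019 15 d, where 11.6% of all genes were lower and 13.6% higher. Usp18 had 13.8, 20.6 and 13.1 CPM at 35 d and 98.995, 88.8 and 89.6 CPM at 15 d (-2.54 ± 0.43, adjusted p = 0.000169). Samd9l, a translation-restricting antiviral factor, had 20.2, 21.9 and 15.7 CPM, against 51.05, 43.1 and 49.3 CPM (-1.31 ± 0.23, adjusted p = 0.000185). Between DMSO 35 d and DMSO 15 d, 0 of 49 genes were called higher and 0 lower by edgeR. As 0.455% of all genes were higher and 1.11% lower, these counts are near the share of all genes. At an unadjusted p under 0.05, 1 was higher and 1 lower, and DESeq2 and limma on TPM also called 0. Ranges of DMSO libraries were wide, however, as for Isg15 with 55.8, 16.8 and 20.2 CPM at 35 d and 43.9, 45.8 and 25.4 CPM at 15 d.

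At 20 d after removal of a 15 d exposure, most of the genes were still higher. Against DMSO 15 d then 20 d off, 37 of 49 were higher and 3 lower, where 24.7% of all genes were higher and 24% lower, and the median log2 fold change was 1.21, against -0.01 over all genes. The higher genes include 33 of the 39 called before removal, 84.6% of those and 89.2% of the 37. Of all tested members 75.5% were higher after removal and 79.6% at 15 d, so a large overlap follows largely from these shares. The same overlap over all genes was not counted. On the scale of log2(TPM + 1), limma called 22 higher and 5 lower. Beside this, Schwann cell markers were higher in 4 of 5 (sums of 8.22 to 70.96 CPM in KU60019 15 d then 20 d off and 3.81 to 5.97 CPM in DMSO 15 d then 20 d off libraries), and fibroblast markers were lower in 6 of 9 (21007 to 25289 CPM, against 45316 to 51431 CPM). Their part in the result was not tested.

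Oas1g had 5.71, 16.3 and 7.38 CPM in KU60019 15 d then 20 d off and 1.07, 0.295 and 0.270 CPM in DMSO 15 d then 20 d off libraries (4.20 ± 0.76, adjusted p = 0.000312). Oas2 had 11.2, 21.3 and 19.1 CPM, against 2.83, 0.482 and 0.614 CPM (3.74 ± 0.81, adjusted p = 0.000997), and Oas1a had 9.01, 13.9 and 11.2 CPM, against 3.12, 0.724 and 0.491 CPM (3.004 ± 0.59, adjusted p = 0.000497). The libraries once given KU60019 were all above the DMSO libraries, of which the lowest-numbered was the highest each time. Bst2 had 606, 986 and 968 CPM, against 149, 68.9 and 89.2 CPM (3.06 ± 0.38, adjusted p = 2.19e-05), and Ifit1 had 97.2, 299.5 and 176 CPM, against 41.1, 13.4 and 20.2 CPM (2.94 ± 0.52, adjusted p = 0.000275). Isg15 also stayed higher, with 175, 244 and 248 CPM, against 54.8, 19.2 and 23.9 CPM (2.77 ± 0.47, adjusted p = 0.000219). All 4 HIN200 genes, 6 of 7 ISG15 system genes and both Mx genes were called higher, Mx1 among them at 1.97 ± 0.57 (SE, adjusted p = 0.00779). Among the most abundant members Ifitm3 had 922, 747 and 1040.4 CPM, against 451, 349 and 370.4 CPM (1.21 ± 0.22, adjusted p = 0.000313).

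Ifi27 departed from the common pattern here. It had 375, 413 and 410.2 CPM in KU60019 15 d then 20 d off and 212, 202 and 201 CPM in DMSO 15 d then 20 d off libraries (0.96 ± 0.18, adjusted p = 0.000437), although it had not been called on the inhibitor. In the opposite direction, Slfn5, a Schlafen family gene, had 0.718, 0.0410 and 0.233 CPM, against 8.47, 3.86 and 3.14 CPM (-3.85 ± 0.97, adjusted p = 0.00295). Adar fell by 0.63 ± 0.25 (adjusted p = 0.0426) and Isg20, an exonuclease for RNA, fell by 0.59 ± 0.23 (adjusted p = 0.0393). This count of 3 lower was 1 without any of the DMSO 15 d then 20 d off libraries or without KU60019 15 d then 20 d off S12_716. Parp9, Parp12, Dtx3l, Ifit2, Oas3, Samd9l, Irf1, Helz2 and Lgals9 were not called, the first 6 having risen on the inhibitor.

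The test of the difference between the effect after removal and the effect at 15 d called 6 of 49 genes lower (11.4% of all genes) and 1 higher (14% of all genes). Ifi27 was the higher one (1.19 ± 0.26, adjusted p = 0.00235). The lower ones were Oasl1 (-1.77 ± 0.51, adjusted p = 0.0159), Parp12 (-0.71 ± 0.21, adjusted p = 0.0187), Dtx3l (-1.16 ± 0.38, adjusted p = 0.0293), Usp18, Ifit2 and Adar. At 6 of 49 (12.2%) they are near the share of all genes, and the count ranged from 0 without DMSO 15 d then 20 d off S7_705 and 1 without DMSO 15 d S2_715 or KU60019 15 d S4_705 to 3 without KU60019 15 d S6_716 and 11 without DMSO 15 d S1_705. Directly against KU60019 15 d, 17 genes were lower and 2 higher in KU60019 15 d then 20 d off, where 19% and 21.3% of all genes were, so that most members were not called either way. The 2 higher genes were Ifi27 (1.07 ± 0.18, adjusted p = 0.000133) and Ifi203 (1.19 ± 0.38, adjusted p = 0.0172), and only 1 was called without KU60019 15 d S5_715 or S6_716. Of the lower ones Oasl1 had 5.12, 3.78 and 4.53 CPM after removal and 20.2, 12.7 and 13.3 CPM at 15 d (-1.78 ± 0.35, adjusted p = 0.000464), and Dtx3l and Parp12 fell by 1.33 ± 0.27 and fell by 0.76 ± 0.15.

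Removal after 35 d gave a mixed picture. Against DMSO 35 d then 20 d off, 20 of 49 genes were higher and 3 lower, where 24.4% of all genes were higher and 24.5% lower. The share of members called higher, 40.8%, is above that of all genes, while the median log2 fold change was 0.67, against 0.00 over all genes. Oas2 had 6.33, 7.57 and 5.79 CPM in KU60019 35 d then 20 d off and 1.40, 0.530 and 0.737 CPM in DMSO 35 d then 20 d off libraries (2.95 ± 0.87, adjusted p = 0.00753). Ifi44 had 17.9, 20.6 and 16.3 CPM, against 3.14, 2.91 and 1.67 CPM (2.85 ± 0.51, adjusted p = 7.73e-05). Oas1a had 8.45, 9.47 and 7.90 CPM, against 3.07, 1.32 and 1.01 CPM (2.32 ± 0.60, adjusted p = 0.00268), with no overlap in these 3 genes. Ifit3b had 7.49, 15.6 and 6.57 CPM, against 1.33, 2.87 and 2.33 CPM (2.14 ± 0.53, adjusted p = 0.00186), and Oasl2 had 14.5, 20.95 and 10.4 CPM, against 4.89, 3.84 and 4.50 CPM (1.80 ± 0.43, adjusted p = 0.00153). In DMSO 35 d libraries Ifit3b had 21.5, 9.17 and 9.32 CPM and Oasl2 24.6, 14.2 and 14.4 CPM, which overlaps both genes' levels after KU60019 and removal. The members' mean was -0.34 in KU60019 35 d then 20 d off, beside -1.13 in its DMSO group and -0.48 to -0.28 in the 3 other DMSO groups. Oas1g had 6.29, 4.97 and 5.26 CPM, against 3.56, 0.794 and 0.388 CPM, and its call (1.92 ± 0.71, adjusted p = 0.0296) was lost without DMSO 35 d then 20 d off S20_715 or S21_716 or KU60019 35 d then 20 d off S22_705.

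Several genes moved differently from the groups above. Lgals9 had 170.1, 155 and 138 CPM in KU60019 35 d then 20 d off and 69.04, 64.2 and 84.4 CPM in DMSO 35 d then 20 d off libraries (1.09 ± 0.16, adjusted p = 5.89e-06). Its DMSO 35 d then 20 d off libraries were below those of all other groups, whose lowest library had 133 CPM. Slfn2 had 28.6, 30.7 and 27.9 CPM, against 103, 40.02 and 40.9 CPM, and fell by 1.08 ± 0.31 (adjusted p = 0.00709), with DMSO 35 d then 20 d off S19_705 far above the other libraries. Irf1 fell by 0.63 ± 0.16 (adjusted p = 0.00279) and Samd9l fell by 0.64 ± 0.23 (adjusted p = 0.0241). With limma on TPM 0 of the 49 genes fell. The HIN200 genes split, Ifi203 being higher (1.56 ± 0.42) and the other 3 not called. Isg15 was not called (0.92 ± 0.45, adjusted p = 0.0979). Fibroblast markers summed to between 10084 and 12631 CPM in KU60019 35 d then 20 d off and between 12923 and 16306 CPM in DMSO 35 d then 20 d off libraries. Epithelial markers summed to between 3.36 and 5.12 CPM, against 24.3 to 71.6 CPM, with 2 of 3 lower, where 24.5% of all genes were lower and 24.4% higher. Macrophage markers summed to between 24.9 and 35.3 CPM, against 7.29 to 9.49 CPM, with 1 of 8 (Cd68) higher, and Schwann cell markers to between 9.65 and 37.04 CPM, against 11.3 to 20.5 CPM, with 4 of 5 higher. The part of these markers in the result was not tested.

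The difference between the effect after removal from 35 d and the effect at 35 d was called higher for 3 genes and lower for 3, where 15.8% and 16.6% of all genes were. The members' shares were 6.12% each. Lower were Slfn2 (-2.39 ± 0.45, adjusted p = 0.000381), Ifi207 (-2.67 ± 0.61, adjusted p = 0.00214) and Ifi205 (-1.41 ± 0.42, adjusted p = 0.0141), and higher were Lgals9 (0.97 ± 0.22, adjusted p = 0.00194), Isg20 and Sp100. Ifi207 had 2.74, 4.85 and 3.53 CPM in KU60019 35 d then 20 d off and 2.65, 3.49 and 5.27 CPM in DMSO 35 d then 20 d off libraries. It thus lost the separation seen at 35 d. The 3 higher calls were 1 without KU60019 35 d S17_715, KU60019 35 d then 20 d off S22_705 or DMSO 35 d then 20 d off S20_715 and 5 without DMSO 35 d then 20 d off S21_716, and 0 without the 4 libraries over 0.4% rRNA. The 3 lower calls were 5 without KU60019 35 d then 20 d off S23_715 or DMSO 35 d then 20 d off S19_705.

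Directly against KU60019 35 d, 18 of 49 genes were lower and 0 higher in KU60019 35 d then 20 d off, where 6.82% of all genes were lower and 5.77% higher. Cmpk2 had 0.540, 1.09 and 0.347 CPM after removal and 2.03, 3.15 and 1.54 CPM at 35 d (-1.81 ± 0.43, adjusted p = 0.00931). Parp9 had 11.4, 16.1 and 10.1 CPM, against 24.9, 28.2 and 22.9 CPM (-1.02 ± 0.25, adjusted p = 0.0115), and Stat2 had 34.8, 34.1 and 32.8 CPM, against 57.2, 70.4 and 56.3 CPM (-0.86 ± 0.21, adjusted p = 0.0119). Ifi205 had 26.4, 32.5 and 27.3 CPM, against 74.6, 63.8 and 60.8 CPM (-1.21 ± 0.30, adjusted p = 0.0125). None of the 18 calls held in every alternative, and the count was 4 without KU60019 35 d S16_705 or S17_715, 3 without KU60019 35 d then 20 d off S22_705, 0 without KU60019 35 d then 20 d off S24_716 and 21 at most.

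In all 4 comparisons of KU60019 with DMSO 11 genes were higher: Bst2, Ifi44, Ifit3, Ifit3b, Oas1a, Oas1b, Oas1g, Oas2, Oasl1, Rsad2 and Xaf1. Of all genes tested 0.551% were higher in all 4. The comparison after removal from 35 d used the DMSO group with the lowest mean of the members (-1.13). Ifit3 and Ifit3b had means of 41.2 and 9.90 CPM in KU60019 35 d then 20 d off, under their 48.1 and 17.1 CPM in DMSO 15 d. Bst2 and Ifi44 had 468 and 18.3 CPM there, above their 121 and 5.73 CPM in DMSO 15 d. Of the 18 calls at 35 d, 8 held without each library in turn. Irf1, Helz2 and Slfn5 were called higher in none of the 4.

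At 10 d after irradiation few of the genes were called against DMSO 15 d. Of 49 genes 11 were higher and 2 lower, where 14.1% of all genes were higher and 16.8% lower, beside 22.4% and 4.08% of the members. The median log2 fold change was 0.17, against -0.01 over all genes. Without IR 10 d S25_705 the counts were 4 higher and 7 lower, without DMSO 15 d S3_716 5 were higher, and lower calls were 1 without DMSO 15 d S1_705 and 4 without DMSO 15 d S2_715.

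Ifi44 had the largest rise, with 51.99, 47.03 and 21.5 CPM in IR 10 d and 9.25, 3.91 and 4.03 CPM in DMSO 15 d libraries (2.81 ± 0.47, adjusted p = 0.00012). Bst2 had 503, 302 and 244 CPM, against 136, 152 and 73.7 CPM (1.54 ± 0.36, adjusted p = 0.00263), and neither gene overlapped between groups. Isg15 had 189.6, 82.9 and 61.6 CPM, against 43.9, 45.8 and 25.4 CPM (1.54 ± 0.45, adjusted p = 0.0125). Usp18 had 26.05, 13.7 and 10.4 CPM, against 9.16, 5.66 and 5.05 CPM (1.34 ± 0.43, adjusted p = 0.0206), and Slfn2 had 39.5, 25.4 and 21.3 CPM, against 14.9, 15.2 and 10.6 CPM (1.09 ± 0.32, adjusted p = 0.0116). These 3 calls were lost without IR 10 d S25_705, the highest library in each, at 0.92, 0.87 and 0.80, and without DMSO 15 d S3_716, and that of Usp18 also without DMSO 15 d S2_715. Also higher were Oas1a (1.99 ± 0.58), Oas1g (1.89 ± 0.72), Oasl1 (1.62 ± 0.37), Xaf1 (1.01 ± 0.26), Ifi35 (0.94 ± 0.34) and Isg20 (0.96 ± 0.23).

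Lower after irradiation were Irf1, with 17.7, 15.5 and 17.3 CPM in IR 10 d and 31.1, 30.1 and 28.9 CPM in DMSO 15 d libraries (-0.84 ± 0.16, adjusted p = 0.000448), and Slfn5, with 2.36, 0.409 and 0.799 CPM, against 29.8, 1.68 and 8.95 CPM (-3.47 ± 0.85, adjusted p = 0.00352). The Slfn5 ranges overlapped, and its call was lost without DMSO 15 d S1_705, the highest library. No IFIT, PARP, MX or HIN200 gene was called, and neither were Stat2 (-0.22 ± 0.21) and Irf9 (0.01 ± 0.18). Irf7 rose by 1.23 ± 0.43 (adjusted p = 0.0338), and 5 of 12 MHC class I genes rose, where 14.1% of all genes were higher and 16.8% lower. The choice of control carried weight: with DMSO 35 d then 20 d off as the control 33 of 49 genes were higher, where 27.3% of all genes were, Slfn5 was higher by 3.40 and Slfn2 was lower at -1.09. Fibroblast markers summed to between 13830.2 and 19749.6 CPM in IR 10 d and between 28666 and 41553 CPM in DMSO 15 d libraries, with 4 of 9 lower and 1 higher. Endothelial markers, of which 9 of 11 fell, summed to between 43.1 and 51.9 CPM in IR 10 d and between 54.6 and 146 CPM in DMSO 15 d libraries, and their part in the result was not tested.

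Set directly against KU60019 15 d, IR 10 d libraries were lower in 36 of 49 genes and higher in 2, where 11.1% of all genes were lower and 12.5% higher, with a median difference of -1.40. Parp12 had 19.2, 16.2 and 15.9 CPM in IR 10 d and 43.7, 35.4 and 40.8 CPM in KU60019 15 d libraries (-1.22 ± 0.15, adjusted p = 4.93e-06). Cmpk2 had 1.37, 0.964 and 0.532 CPM, against 11.3, 7.11 and 8.21 CPM (-3.18 ± 0.41, adjusted p = 7.99e-06). Samd9l had 19.7, 12.6 and 12.4 CPM, against 51.05, 43.1 and 49.3 CPM (-1.68 ± 0.23, adjusted p = 1.29e-05), and Ifi207 had 2.98, 0.847 and 0.887 CPM, against 16.9, 10.3 and 10.6 CPM (-2.97 ± 0.45, adjusted p = 4.58e-05). The irradiated libraries lay below all inhibited libraries in each of these genes. Higher were Isg20 (0.96 ± 0.23, adjusted p = 0.00394) and Ifi27 (0.69 ± 0.18, adjusted p = 0.00802). The lower count ranged from 31 to 39 without single libraries.

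**Figure D4:**
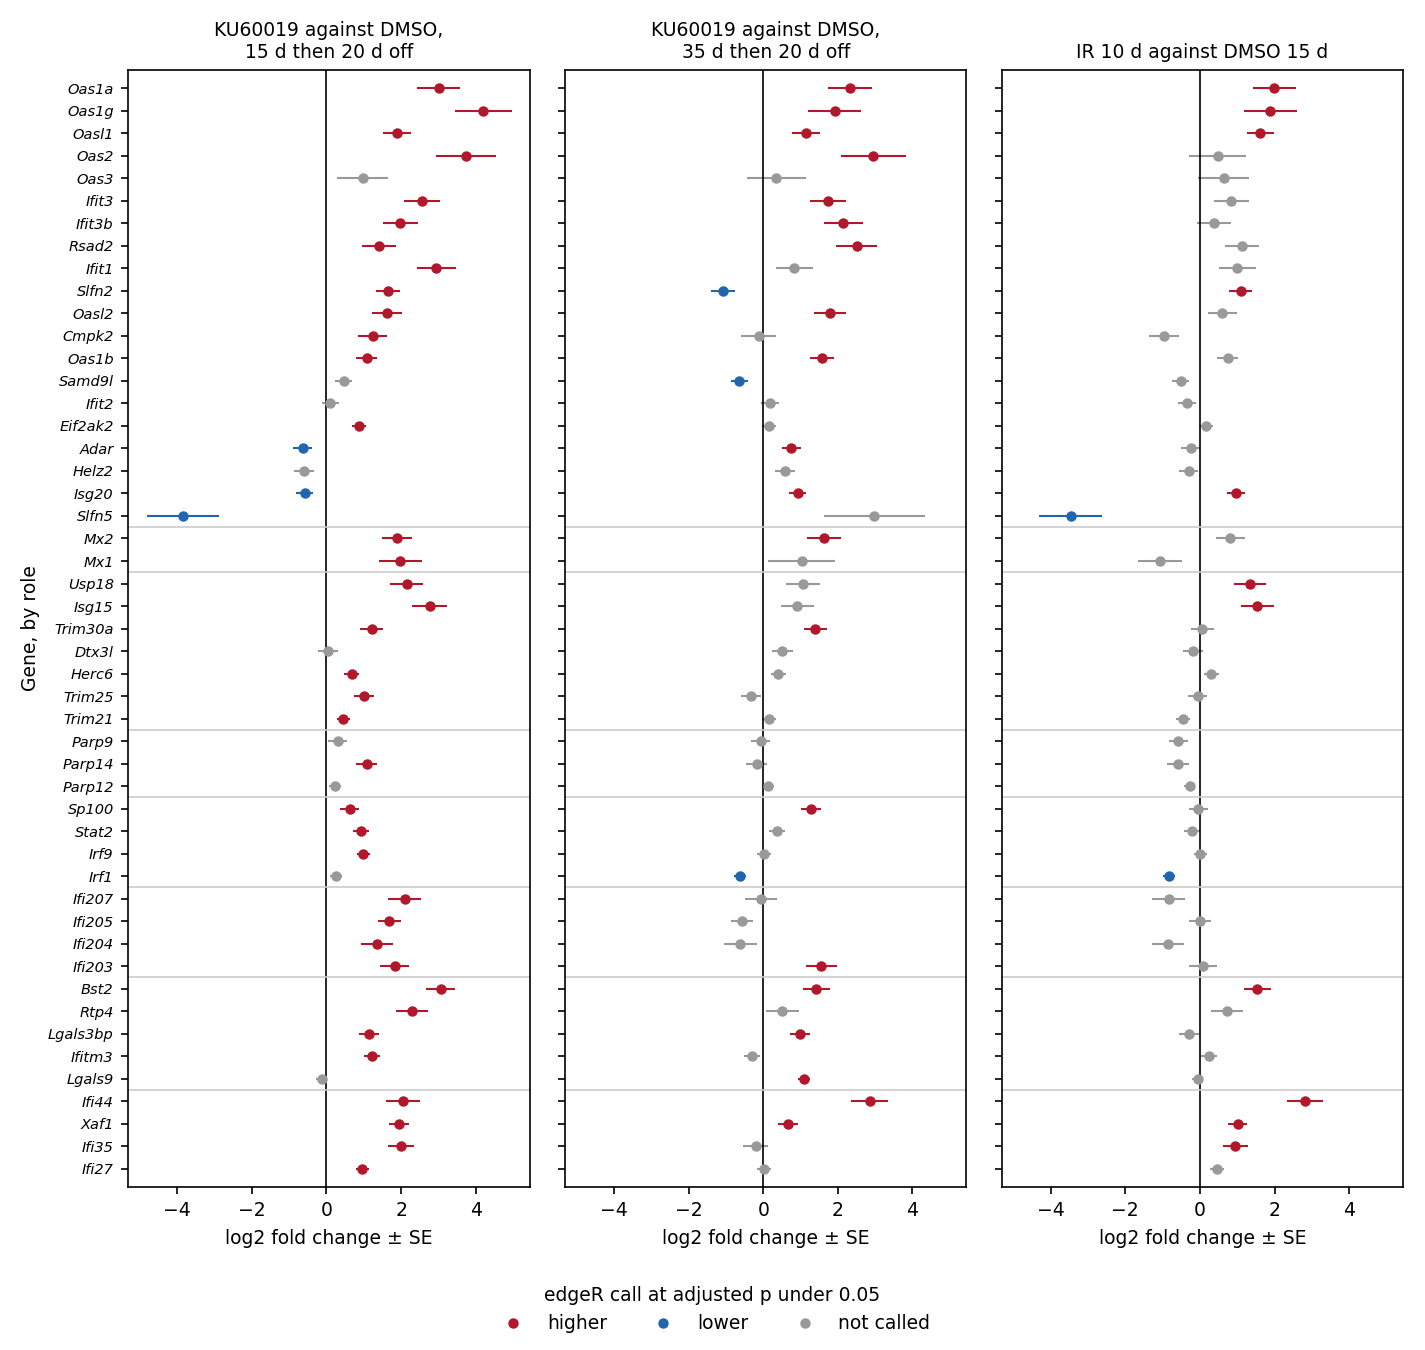
Log2 fold change ± SE of each gene (rows, by role) for KU60019 against DMSO after 15 d and 20 d of removal (left), after 35 d and 20 d of removal (middle), and for IR 10 d against DMSO 15 d (right), from edgeR. Higher calls (red) number 37, 20 and 11, and lower calls (blue) 3, 3 and 2.

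The 4 genes that did not follow the others had distinct courses. Ifi27 was highest in KU60019 15 d then 20 d off, and its DMSO libraries lay between 167 and 329 CPM. Isg20 had 40.5, 39.03 and 42.1 CPM in KU60019 35 d then 20 d off and 16.3, 21.8 and 25.7 CPM in DMSO 35 d then 20 d off libraries, where it was higher (0.92 ± 0.23, adjusted p = 0.00229), after being lower in the removal from 15 d. Irf1 was lowest in the irradiated libraries and in KU60019 35 d then 20 d off, with 16.8, 22 and 15.3 CPM, against 21.01, 28.9 and 33.4 CPM in its DMSO group. Slfn5 varied widely within and between DMSO groups: its DMSO 15 d libraries had 29.8, 1.68 and 8.95 CPM and its DMSO 35 d then 20 d off libraries 0.0698, 0.177 and 0.0775 CPM.

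**Figure D5:**
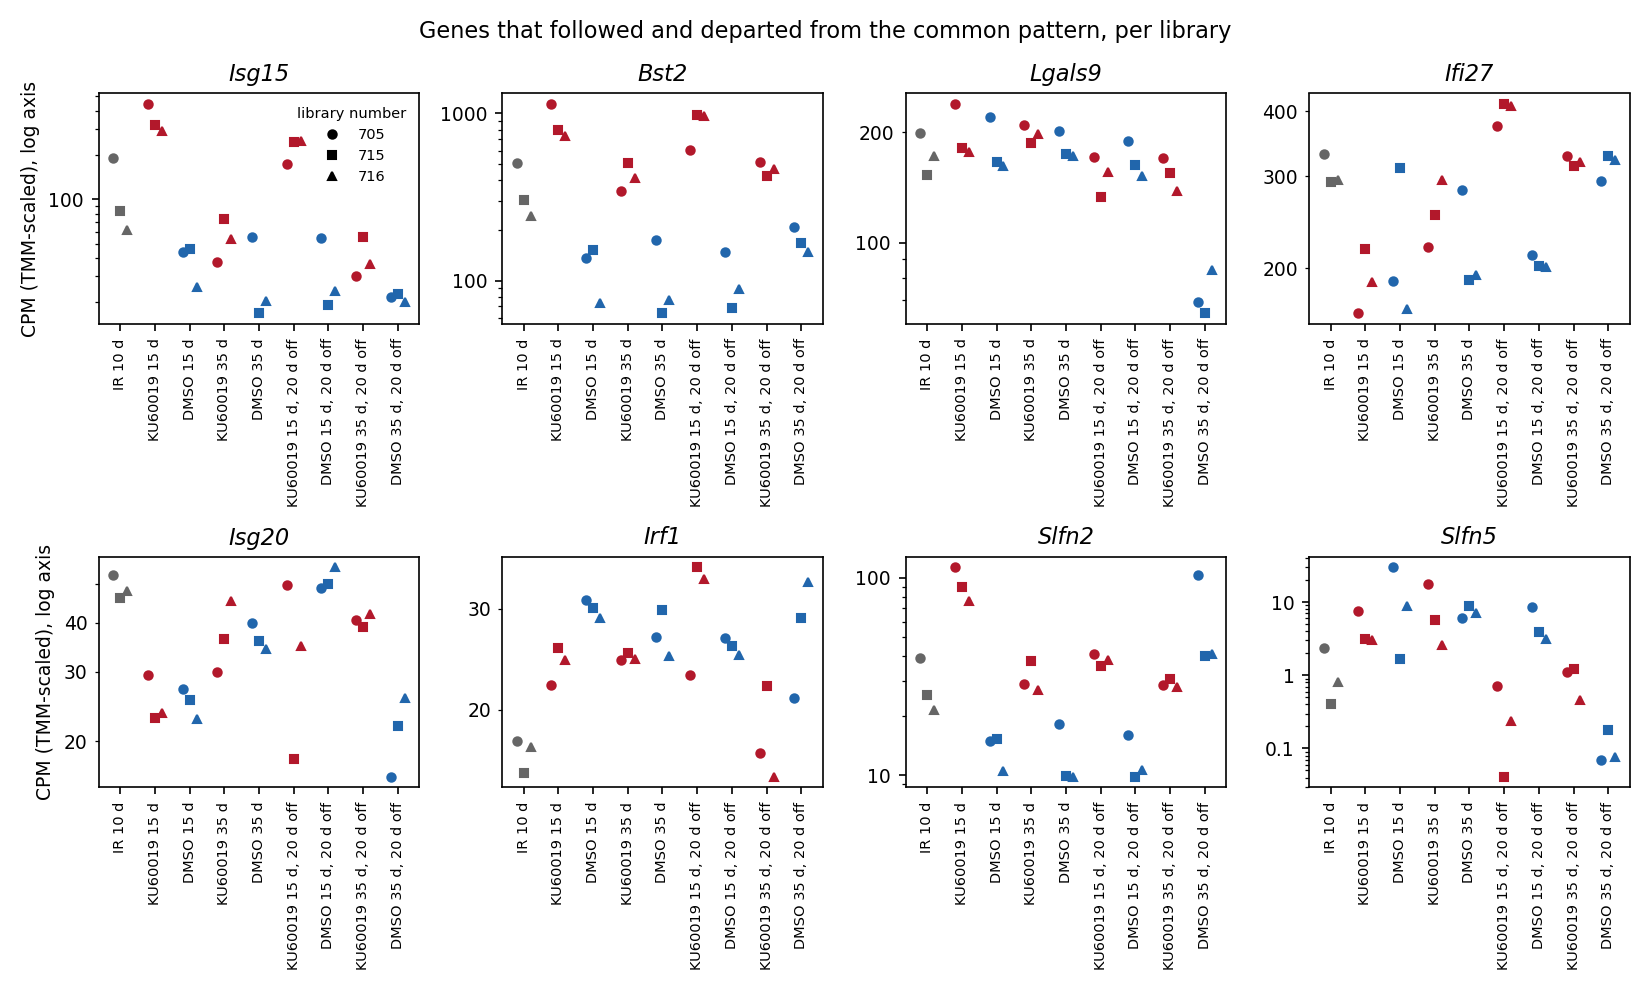
CPM on a log axis of 8 genes in each library, coloured red for KU60019, blue for DMSO and grey for IR 10 d, with point shape for library number and groups along the horizontal axis. Isg15 follows the common pattern with its highest values under KU60019 at 15 d. Bst2 is high there too, but its libraries overlap those of KU60019 15 d then 20 d off. Lgals9, Ifi27, Isg20, Irf1, Slfn2 and Slfn5 depart from the common pattern in at least 1 group.

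After removal from 15 d, where 24% of all genes were lower, receptor genes were lower in 3 of 6 cases, among them Ifnar1 (-0.60 ± 0.21, adjusted p = 0.0237) and Ifnar2 (-0.86 ± 0.29, adjusted p = 0.0174), and Irf7 was higher (2.07 ± 0.44). After removal from 35 d, where 24.4% of all genes were higher, 3 of 6 receptor genes were, among them Ifnar2 (1.60 ± 0.29, adjusted p = 0.000101), with 106 ± 18.6 CPM in KU60019 35 d then 20 d off and 34.8 ± 12.7 CPM in DMSO 35 d then 20 d off libraries (mean ± SD, n = 3 each). Jak2 was the one pathway gene lower in each of the 5 comparisons of a treated group with DMSO. Its log2 fold change ran from -0.42 ± 0.16 at 15 d of KU60019 to -0.77 ± 0.16 after removal from 15 d. The shares of all genes lower, or higher, in all 5 were not counted. The comparisons are not independent, as DMSO 15 d was the control of both KU60019 15 d and IR 10 d. MHC class I genes were higher in 9 of 12 cases after removal from 15 d and in 10 of 12 after removal from 35 d, where 24.7% and 24.4% of all genes were higher, and B2m, the light chain of these molecules, in all 5 comparisons, by 1.35 ± 0.20 and 1.19 ± 0.20 after the 2 removals.

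Of 10429 other genes with a mean of at least 5 CPM, those whose log2 CPM followed the members' mean most closely over the 27 libraries were Irf7 (Pearson r 0.96), Igtp (0.96), Gbp3 (0.95), Tgtp1 (0.91), Zbp1 (0.91), Dhx58 (0.91), Shisa5 (0.91) and Ifih1 (0.89).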

How the data were processed

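Total RNA libraries were prepared with TruSeq reagents, per the labels' protocols. The authors deposited raw read counts per gene, and TPM values of the same libraries; the submitters' processing notes name featureCounts and mm10. No source used here states the aligner, annotation release or strand setting, so overlapping and antisense genes cannot be told apart. Groups and library numbers were taken from the sample titles. The 50 genes and all other lists were chosen with earlier results of these data known.

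Genes were tested on the deposited counts by edgeR's quasi-likelihood test (version 4.0.16, R 4.3.3; robust option, TMM factors). One model of group means covered all 27 libraries and gave 13 comparisons, after filterByExpr at min.count 10, with Benjamini-Hochberg adjustment over 18684 genes. An approximate SE is |log2 fold change|/√F. Log2 CPM for the members' mean used a prior count of 2. The procedure was tested on simulated counts. Alternatives were other size factors, no filter, DESeq2 1.42.0, limma 3.58.1 on log2(TPM + 1) or log2(TPM + 0.1), which understates changes of low genes, a replicate block, a fit of only the compared groups, removal of each library's length trend, omission of rRNA-rich libraries or of each library, and other controls for irradiation.

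All members may be named. Values per library are given for the 6 called members of largest change in each comparison with DMSO that reach a mean of 5 CPM, for the 5 of highest TPM, for members called against the majority, and for the 4 of lowest p in the other comparisons. Others with values per library (Oas3, Ifit1, Ifit2, Ifit3, Isg15, Mx1, Irf1 and Isg20 among them) were added after their values were seen. Libraries within a group differed by more than counting noise (chi-square per gene at least 6.66). As a check of pairing, deviations from group means correlated at 0.39, 0.22 and 0.38 between same-numbered KU60019 15 d and DMSO 15 d libraries, which meets the rule for pairing (every pair over 0.1). The values reported come from the model without pairing, and the replicate block is given as an alternative. In each other comparison with DMSO at least 1 pair stayed at or under 0.1. Positions and transcripts are from GENCODE M21 (GRCm38), and promoter sequences from RefSeq (GRCm38.p6). Strand was checked: 41 of the 50 member windows end in sequence found in sense in the gene's transcripts, and 0 in antisense. One gene of the signalling pathway is not reported here.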

Additional observations from a re-analysis of the deposited data

Results flagged for a closer look

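Single interferon-stimulated genes are listed here since the test of the difference between KU60019 effects at 2 times called them. Between 35 d and 15 d of exposure 8 genes (16.3%) had a smaller effect at 35 d, where 4.58% of all genes did, including Parp12 (-1.004), Isg15 (-2.37), Samd9l (-1.16) and Usp18 (-2.12), as differences of log2 fold changes. This count was 2 without DMSO 35 d S13_705 or KU60019 35 d S16_705, and 1 of the 8 genes was called without each library in turn. After removal from 15 d, 1 gene (2.04%) had a larger and 6 (12.2%) a smaller effect than at 15 d, where 14% and 11.4% of all genes did, and the 6 lay between 0 and 11 without single libraries. The larger was Ifi27 (1.19), and Oasl1 (-1.77), Parp12 (-0.71) and Dtx3l (-1.16) were among the smaller. After removal from 35 d, 3 genes had a larger and 3 a smaller effect than at 35 d (6.12% each), where 15.8% and 16.6% of all genes did, including Slfn2 (-2.39), Lgals9 (0.97), Ifi207 (-2.67) and Ifi205 (-1.41). For both removals the members' shares were thus near or under those of all genes. Slfn2 rests on a DMSO group of 103, 40.02 and 40.9 CPM, against 18.2, 9.93 and 9.84 CPM in DMSO at 35 d, and Lgals9 on 69.04, 64.2 and 84.4 CPM, against 201, 174 and 172 CPM, so in both the DMSO values moved between the times as well.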

How the results depend on the processing

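Of 484 counts of members called under an alternative, 403 stayed within 1.5 times the main value; the cause of the other shifts was not tested. Of 1076 values of single named genes, 1011 kept direction and call and 63 lost the call. These genes were picked among called members by largest change or lowest p, which favours calls that are kept. Over all called members, 29 of 39 at 15 d and 8 of 18 at 35 d were called in every alternative. After removal from 15 d and from 35 d these were 21 of 40 and 13 of 23, and after irradiation 4 of 13. For KU60019 15 d against DMSO 15 d the 39 higher calls stayed within that limit throughout. The replicate block gave 39 higher and 0 lower there, 21 and 0 at 35 d, 36 and 2 after removal from 15 d, 22 and 3 after removal from 35 d, and 13 and 2 after irradiation, so pairing moved none of these counts by over 1.5 times.

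With the length trend removed, 1 gene was lower in KU60019 15 d than in DMSO 15 d and 2 were higher in KU60019 35 d than in KU60019 15 d. Fitting only the compared groups gave 1 lower at 15 d, 0 lower after removal from 35 d, 1 lower after irradiation, 15 smaller effects at 35 d than at 15 d, 3 smaller effects after removal from 15 d, 5 larger after removal from 35 d, 2 higher in KU60019 35 d than in KU60019 15 d and 34 lower in KU60019 35 d then 20 d off than in KU60019 35 d. With limma on log2(TPM + 1), removal from 15 d gave 22 higher and 5 lower, removal from 35 d 0 lower, irradiation 5 lower, 11 effects were smaller after removal from 15 d and 12 larger after removal from 35 d, and against the inhibited groups 1 was higher and 27 lower after removal from 15 d and 10 lower after removal from 35 d. With log2(TPM + 0.1) these were 22 and 5, 0, 15 larger effects after removal from 35 d, 1 and 26, and 10. Without a filter, log2(TPM + 1) gave 22 higher after removal from 15 d, 0 lower after removal from 35 d, 7 higher after irradiation, 8 larger effects after removal from 35 d, and against the inhibited groups 1 higher and 3 lower. Counts with no filter gave 3 smaller effects at 35 d, 1 higher in KU60019 15 d then 20 d off than in KU60019 15 d and 11 lower in KU60019 35 d then 20 d off than in KU60019 35 d. Scaling by library size alone gave 1 lower after removal from 35 d and 7 larger effects, and leaving out the libraries above 0.4% rRNA gave 1 lower and 2 smaller effects after removal from 15 d and 0 larger effects after removal from 35 d. RLE size factors and DESeq2 each gave 2 larger effects after removal from 15 d, and DESeq2 1 gene higher in KU60019 35 d than in KU60019 15 d. For irradiation, DMSO 35 d then 20 d off as control gave 33 higher and reversed Slfn5 (3.40) and Slfn2 (-1.09), and DMSO 15 d then 20 d off gave 1 lower.

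Without single libraries, higher and lower calls ranged over 33 to 38 and 0 to 1 at 15 d, 8 to 21 and 0 at 35 d, 31 to 37 and 1 to 3 after removal from 15 d, 17 to 21 and 2 to 3 after removal from 35 d, and 4 to 12 and 1 to 7 after irradiation. Larger and smaller effects ranged over 0 and 2 to 8 at 35 d, 1 to 2 and 0 to 11 after removal from 15 d, and 1 to 5 and 3 to 5 after removal from 35 d. Between treated groups they were 0 and 22 to 31 for KU60019 35 d against KU60019 15 d, 1 to 3 and 14 to 18 for removal from 15 d, 0 and 0 to 21 for removal from 35 d, 2 and 31 to 39 for IR 10 d against KU60019 15 d, and 0 and 0 for DMSO 35 d against DMSO 15 d. Oas3 (596 reads over all libraries) and Mx1 (1113 reads) rest on the fewest reads of the tested members, and 3 libraries a group limit what the tests can detect.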
